A study of Mus musculus with 16 samples.

Results

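The peroxisome proliferator-activated receptors (PPARs), their retinoid X receptor (RXR) partners and the CCAAT/enhancer-binding proteins (C/EBPs) are the transcription factors at the centre of fat cell formation and lipid metabolism. Their 8 genes measured here, Pparg, Ppara, Ppard, Rxra, Rxrg, Cebpa, Cebpb and Cebpd, were taken by symbol from the 18193 genes that have a probe set assigned to a single gene in the platform's probe table. They were covered by 15 such probe sets. Of these, 12 passed the filter on dim values, at least 4 arrays at a log2 of 4 or above, and every one of the 8 genes passed through its brightest probe set.

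The arrays came from white adipose tissue of C57BL6/J mice and crossed genotype with diet, with 4 arrays in each of 4 groups, called WT-LFD, KO-LFD, WT-HFD and KO-HFD for wild type (WT) or knockout (KO) and low fat (LFD) or high fat diet (HFD). Wild-type mice carried no Cre recombinase. Knockout mice had Sirt1, the gene of an NAD-dependent deacetylase, deleted by a Cre transgene under the FABP4 promoter, which is active in fat cells and has also been seen active in other cells, so that transgene and deletion came together in every knockout group. The diet, low in fat or high in fat, began at 4 weeks of age and lasted 8 weeks, and their fat was collected at 12 weeks. The sources used here do not give the fat depot, the diets' composition or whether replicates are separate mice, so a p-value here takes in only how these samples vary, which may be technical.

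PPARs bind DNA as heterodimers with an RXR and are switched on by fatty acids and their derivatives. In fat, PPARG drives and maintains the adipocyte programme together with C/EBPα, after an early wave of C/EBPβ and C/EBPδ, whereas PPARA governs fatty acid oxidation in liver and brown fat and PPARD does so in muscle and many other tissues. SIRT1 is known to deacetylate PPARG and its coactivator PGC-1α. C/EBPβ and C/EBPδ also act in the acute phase response to inflammation.

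On their brightest probe sets the 3 PPAR genes fell with high fat feeding in wild-type fat, and the other 5 factors did not pass the test; 3 of 8 is close to the share over all genes tested, 35.6%. Ppara had the largest difference of the 3, Pparg went from a mean of 12.27 to 11.29, and Ppard had the smallest. In knockout fat Ppara fell with the diet and the other 7 did not pass, and whether the factors differ from each other was not tested. Dimmer probe sets of Rxra and Cebpd gave other calls for the diet, and a dimmer probe set of Ppara did so for knockout on the low fat diet. Knockout of Sirt1 lowered Pparg on the low fat diet, and on the high fat diet no factor passed the test. The adipocyte factor gene Cebpa, one of the most strongly detected genes of the tissue, passed in none of these comparisons.

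All values are log2 expression as the authors deposited it. Differences are given as mean difference ± standard error (SE) of 4 against 4 arrays, with adjusted p-values from limma (Benjamini-Hochberg over 12078 genes) and a threshold of 0.05. For diet in wild-type fat 3 of 8 factors passed the test, each of them lower, where 35.6% of all genes tested passed and 15.2% passed as lower. For diet in knockout fat 1 of 8 passed, lower, against 29.2% of all genes and 13.5% lower. For knockout on the low fat diet 1 of 8 passed, lower, against 18.9% of all genes and 7.24% lower. For knockout on the high fat diet it was 0 of 8 (0 at an unadjusted p under 0.05) against 15.1% of all genes, and for the interaction of genotype and diet 0 of 8 (1 at an unadjusted p under 0.05) against 13.0%. Groups without any overlap were found for 3 of 8 factors for diet in wild type (30.8% of all genes), for 1 for diet in knockout (33.1%), and for 1 between the low fat (17.9%) and 1 between the high fat (26.1%) genotypes. The comparisons of diet in wild type and of knockout on the low fat diet use the same 4 WT-LFD arrays, so their values are not independent.

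The promoter windows differ in base composition, between genes and between starts of 1 gene. They are the 250 bases before a RefSeq transcript start (GRCm38.p6, plus strand of the gene, 5′ to 3′), and 7 of the 8 factors have windows in that table, 11 in all; Cebpd has none there. The 3 shown belong to the factors that the results turn on: the third Pparg start, where capitals mark the C/EBP word TTGCNNAA, the single Ppara start, which has no capitals, and the Cebpa start, where capitals mark a TATAAA box. Their coordinates are chr6:115421816-115422065, chr15:85735526-85735775 and chr7:35119043-35119292.
Pparg: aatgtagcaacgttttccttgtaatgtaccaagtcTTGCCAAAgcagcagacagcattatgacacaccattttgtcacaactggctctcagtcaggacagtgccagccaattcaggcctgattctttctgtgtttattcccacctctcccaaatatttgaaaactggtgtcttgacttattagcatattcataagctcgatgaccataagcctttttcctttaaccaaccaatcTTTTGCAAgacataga
Ppara: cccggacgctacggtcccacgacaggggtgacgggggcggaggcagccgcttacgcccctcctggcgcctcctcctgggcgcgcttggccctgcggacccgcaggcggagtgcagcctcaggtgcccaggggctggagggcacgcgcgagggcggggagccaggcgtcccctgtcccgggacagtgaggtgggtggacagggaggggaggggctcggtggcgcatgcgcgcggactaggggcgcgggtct
Cebpa: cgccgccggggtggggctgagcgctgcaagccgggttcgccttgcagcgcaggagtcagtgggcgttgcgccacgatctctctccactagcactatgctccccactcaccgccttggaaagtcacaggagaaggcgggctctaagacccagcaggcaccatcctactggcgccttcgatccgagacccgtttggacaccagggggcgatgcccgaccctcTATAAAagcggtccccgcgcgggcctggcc
The Pparg window holds 2 C/EBP words, on either strand, whose first bases lie 215 and 16 bases before the start, and 9.56% of all 32851 windows of this length hold at least 1. Its share of G and C is 40.8%, against 82.4% and 63.6% for the other Pparg windows, 76.4% for Ppara, 66.4% for Cebpa and a median of 52.4% over all windows. The Cebpa window has its TATAAA word 30 bases before the start and another Pparg window has one 29 bases before, a word found on either strand in 12.4% of windows. The DR1 element that PPAR-RXR dimers are known to bind, here AGGNCA repeated with 1 base between, was found in 0.338% of windows and in none of the 11 windows of the factors. The array values do not tell the Pparg starts apart, since the gene has 1 probe set.

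Pparg, the receptor gene that fat cells need to form and to store lipid, is read by the probe set 1420715_a_at. Its values were 12.50, 11.95, 12.29 and 12.35 in the 4 WT-LFD arrays and 11.53, 11.59, 11.51 and 11.56 in the 4 KO-LFD arrays. The high fat values were 11.15, 11.41, 11.39 and 11.22 (WT-HFD) and 10.73, 11.52, 11.07 and 11.28 (KO-HFD). Every WT-LFD array lay above all 12 other arrays, the highest of which was at 11.59. The other 3 groups followed in the order KO-LFD, WT-HFD and KO-HFD, and the last overlapped both of the others.

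With the high fat diet Pparg fell by 0.98 ± 0.15 in wild-type fat (1.97-fold, adjusted p = 0.000155). Knockout on the low fat diet lowered it by 0.72 ± 0.15 (1.65-fold, difference -0.72, adjusted p = 0.0038), again without overlap between the groups. That call ended without the 5 arrays highest in skeletal muscle transcripts, those with the troponin gene Tnnt3 at a log2 of 8 or more (-0.69, adjusted p = 0.0985), a setting that also leaves only 2 WT-LFD arrays. Within knockout fat the diet difference was -0.40 ± 0.15 (adjusted p = 0.0584), and it passed in 6 of 28 other settings, among them centring each array (-0.44, adjusted p = 0.024) and leaving out KO-HFD replicate 2 (-0.52, adjusted p = 0.0163). On the high fat diet knockout and wild type differed by -0.15 ± 0.15 (95% confidence interval -0.47 to 0.18, adjusted p = 0.57). The test of whether the genotype difference depends on the diet gave 0.58 ± 0.21 (95% confidence interval 0.12 to 1.03, adjusted p = 0.0854), which did not pass. It passed with array weights (adjusted p = 0.0306), with centred arrays (0.0439), without WT-LFD replicate 2 (0.0304) and without KO-HFD replicate 1 (0.0286).

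Ppara, the receptor gene of fatty acid oxidation, has 3 probe sets, and on each of them both high fat groups lay below both low fat groups. The brightest, 1457721_at, read 7.38, 6.29, 6.93 and 6.64 in WT-LFD and 5.35, 5.66, 6.84 and 6.35 in KO-LFD arrays. It read 4.86, 3.94, 4.34 and 4.88 in WT-HFD and 3.94, 4.45, 4.35 and 3.99 in KO-HFD arrays, close to the filter level of 4. The highest high fat array was thus below the lowest low fat array, and the low fat genotypes overlapped.

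Ppara fell by 2.31 ± 0.31 with the diet in wild-type fat (4.94-fold, difference -2.31, adjusted p = 4.3e-05) and by 1.87 ± 0.31 in knockout fat (3.65-fold, difference -1.87, adjusted p = 0.000296). Both calls held in each of the 29 other settings. Tested singly among 25560 probe sets, where 35.4% passed for diet in wild type (18.7% lower), 27.7% for diet in knockout (13.7% lower) and 18.1% for knockout on the low fat diet (9.12% lower), 1439675_at fell by 2.30 and 1.19 (adjusted p = 0.000191 and 0.0232) and 1449051_at by 2.09 and 1.12 (adjusted p = 5.54e-05 and 0.00818). The high fat levels were near the filter level, so the folds are approximate.

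For knockout on the low fat diet the Ppara probe sets did not give the same call. The brightest gave -0.76 ± 0.31 (adjusted p = 0.0976) and 1439675_at -0.94 ± 0.36 (adjusted p = 0.0853). The third, 1449051_at, fell by 1.27 ± 0.29 (adjusted p = 0.00632), from values of 6.95, 5.63, 6.75 and 5.77 in wild-type to 4.40, 4.61, 5.60 and 5.41 in knockout arrays, with no overlap. With the mean of the 3 probe sets the difference passed (-0.99, adjusted p = 0.0284), and the brightest probe set passed without WT-LFD replicate 2 (-0.93, adjusted p = 0.0459) and without KO-LFD replicate 3 (-1.02, adjusted p = 0.0296). On the high fat diet the difference was -0.32 ± 0.31 (adjusted p = 0.531).

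Ppard, the most widely expressed of the 3 receptor genes across tissues, was dim in every array. Its brightest probe set, 1439797_at, read 5.67, 4.92, 5.70 and 5.39 in WT-LFD and 5.09, 4.97, 5.20 and 5.29 in KO-LFD arrays, and 4.95, 4.70, 5.09 and 5.12 in WT-HFD and 5.04, 4.74, 4.81 and 4.74 in KO-HFD arrays. The groups overlapped throughout. It fell by 0.45 ± 0.16 with the diet in wild-type fat (1.37-fold, difference -0.45, adjusted p = 0.0363), a call that ended in 7 of 28 other settings, including the fit of only the groups compared (adjusted p = 0.106) and the fits without WT-LFD replicates 1 (0.11), 3 (0.11) or 4 (0.0571) or WT-HFD replicates 1 (0.0661) or 2 (0.116). The other differences were -0.31 ± 0.16 for diet in knockout (adjusted p = 0.163), -0.28 ± 0.16 for knockout on the low fat diet (adjusted p = 0.238) and -0.13 ± 0.16 between the high fat groups (adjusted p = 0.629). The other Ppard probe set, 1425703_at, stayed at or under 2.58 and was not tested.

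**Figure D1:**
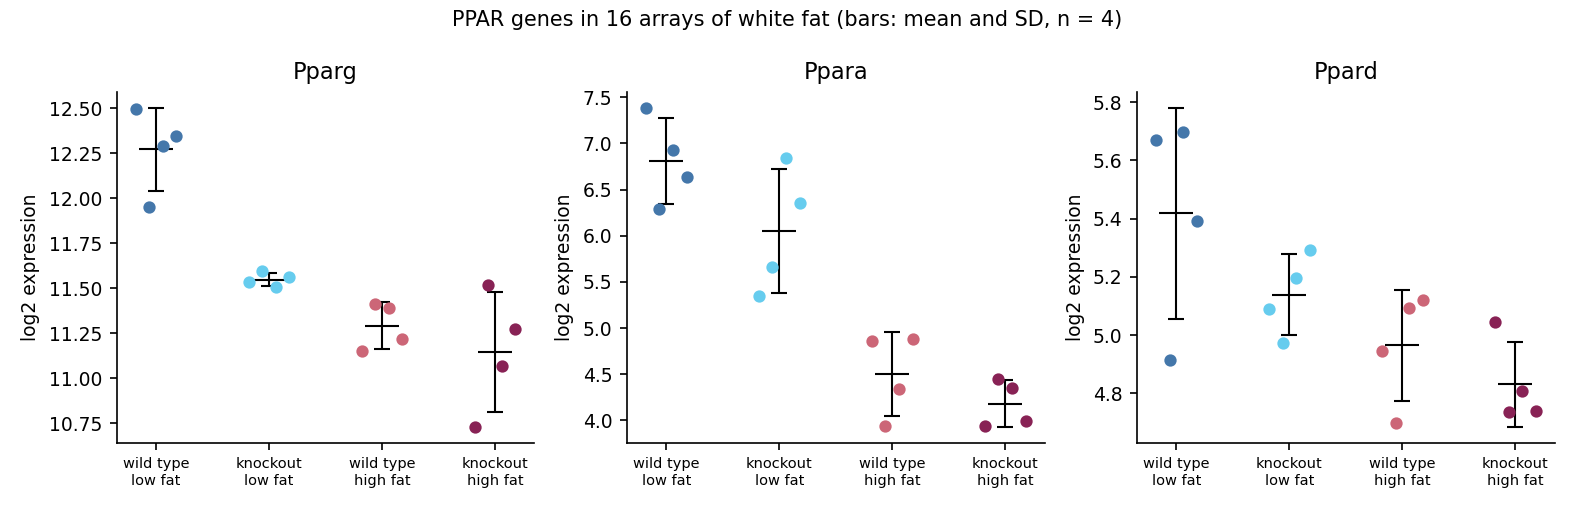
Log2 expression of Pparg, Ppara and Ppard (brightest probe set of each, vertical axis, own scale per panel) in the 4 groups on the horizontal axis, with 1 point per array and bars for the mean and SD of 4 arrays. The WT-LFD arrays of Pparg lie at 11.95 to 12.50, above the highest other array at 11.59, and the 8 high fat arrays of Ppara lie at 3.94 to 4.88.

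Rxra, the main RXR partner in fat, gave nearly level values on its bright probe set 1454773_at. They were 10.85, 10.75, 11.11 and 10.82 in WT-LFD and 10.80, 10.60, 10.77 and 11.09 in KO-LFD arrays. The high fat values were 10.76, 10.86, 10.85 and 10.85 (WT-HFD) and 10.62, 10.84, 10.70 and 10.91 (KO-HFD). The 4 differences ran from -0.07 to -0.05, each with an SE of 0.12 and an adjusted p of 0.733 or above, and the interval for diet in wild type was -0.30 to 0.20.

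A dim Rxra probe set, 1425762_a_at, behaved otherwise. It lay between 3.24 and 4.43. The 4 arrays at 4 or more, the fewest that the filter allows, were all on the low fat diet, so the probe set entered the test through the groups where it is high and its p-values are no support for a diet difference. It fell by 0.45 ± 0.14 with the diet in wild-type (adjusted p = 0.0186) and by 0.56 ± 0.14 in knockout fat (adjusted p = 0.00692). Its group means were 4.18, 3.89, 3.73 and 3.33 in the order WT-LFD, KO-LFD, WT-HFD and KO-HFD. Of these means 3 lie under the filter level of 4, and the bright probe set of the same gene did not pass, so the probe sets of Rxra disagree. With the mean of the gene's probe sets Rxra passed in both diet comparisons (-0.23 with adjusted p = 0.0479, and -0.24 with adjusted p = 0.0441). That mean takes in 1425762_a_at and the still dimmer 1430497_at, so these passes are no support for a diet difference either. The remaining probe set, 1430497_at, stayed between 2.28 and 2.77 and was not tested.

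Rxrg, an RXR gene better known from muscle and brain, was barely above the filter, with 9 of 16 arrays at 4 or more. It read 4.08, 3.68, 3.97 and 3.29 in WT-LFD and 3.93, 3.91, 3.79 and 4.82 in KO-LFD arrays. The values were 3.80, 4.11, 4.21 and 4.03 in WT-HFD and 4.28, 4.95, 4.26 and 4.53 in KO-HFD arrays. All 4 KO-HFD arrays were above all 4 WT-HFD arrays, but the difference of 0.46 ± 0.23 did not pass (adjusted p = 0.183). The other differences were 0.29 and 0.39 for the diet (wild type, then knockout) and 0.36 between the low fat groups (adjusted p = 0.346, 0.211 and 0.291). For diet in knockout it passed with array weights (0.49, adjusted p = 0.0273) and without KO-LFD replicate 4 (0.63, adjusted p = 0.025), the array at 4.82. Of the other members of these families, Rxrb fell by 0.47 ± 0.16 with the diet in wild-type fat (adjusted p = 0.0347), from 10.21 to 9.74, and gave -0.01 in knockout fat.

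Cebpa, which with PPARG keeps fat cells in their mature state, read 12.59, 12.48, 12.53 and 12.50 in WT-LFD and 12.35, 12.38, 12.28 and 12.64 in KO-LFD arrays. The values were 12.39, 12.41, 12.46 and 12.29 in WT-HFD and 12.16, 12.43, 12.33 and 12.46 in KO-HFD arrays. In wild-type fat the 4 high fat arrays all lay below the 4 low fat arrays, by a mean difference of -0.14 ± 0.10 (95% confidence interval -0.36 to 0.08, adjusted p = 0.304). The other differences were -0.07, -0.12 and -0.04 for diet in knockout and for knockout on the low and the high fat diet (adjusted p = 0.668, 0.46 and 0.83).

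Cebpb, an early factor of fat cell formation and a mediator of inflammatory signals, varied more between arrays of a group than between groups. It read 8.37, 8.997, 5.87 and 8.04 in WT-LFD and 7.86, 7.88, 8.04 and 7.02 in KO-LFD arrays. The values were 7.63, 8.04, 8.18 and 7.78 in WT-HFD and 6.88, 8.29, 7.46 and 8.16 in KO-HFD arrays. The 4 differences ran from -0.21 to 0.09, each with an SE of 0.50 and an adjusted p of 0.828 or above. The WT-LFD replicate 3, at 5.87, decides the sign: without it the diet difference in wild type was -0.57, against 0.09 with it, and neither passed. The second Cebpb probe set, 1427844_a_at, stayed between 3.05 and 4.03 and was not tested.

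Cebpd, which acts beside Cebpb, read 9.47, 9.82, 8.51 and 8.96 in WT-LFD and 9.21, 9.01, 9.68 and 8.34 in KO-LFD arrays on the probe set 1423233_at. The values were 8.72, 8.91, 8.16 and 8.49 in WT-HFD and 7.83, 8.84, 8.37 and 8.57 in KO-HFD arrays. The high fat groups had lower means, with overlap, and the differences of -0.62 ± 0.31 in wild-type (adjusted p = 0.127) and -0.66 ± 0.31 in knockout fat (adjusted p = 0.12) did not pass. Without WT-LFD replicate 3 the first became -0.85 (adjusted p = 0.0428), and without KO-LFD replicate 4 the second became -0.90 (adjusted p = 0.0354). The other Cebpd probe set, 1456605_at, gave -0.62 ± 0.23 for diet in wild type, which passed among probe sets tested singly (adjusted p = 0.0456), and -0.53 ± 0.23 in knockout (adjusted p = 0.0975). Knockout and wild type differed by -0.13 between the low fat groups (adjusted p = 0.801) and by -0.17 between the high fat groups (adjusted p = 0.77).

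**Figure D2:**
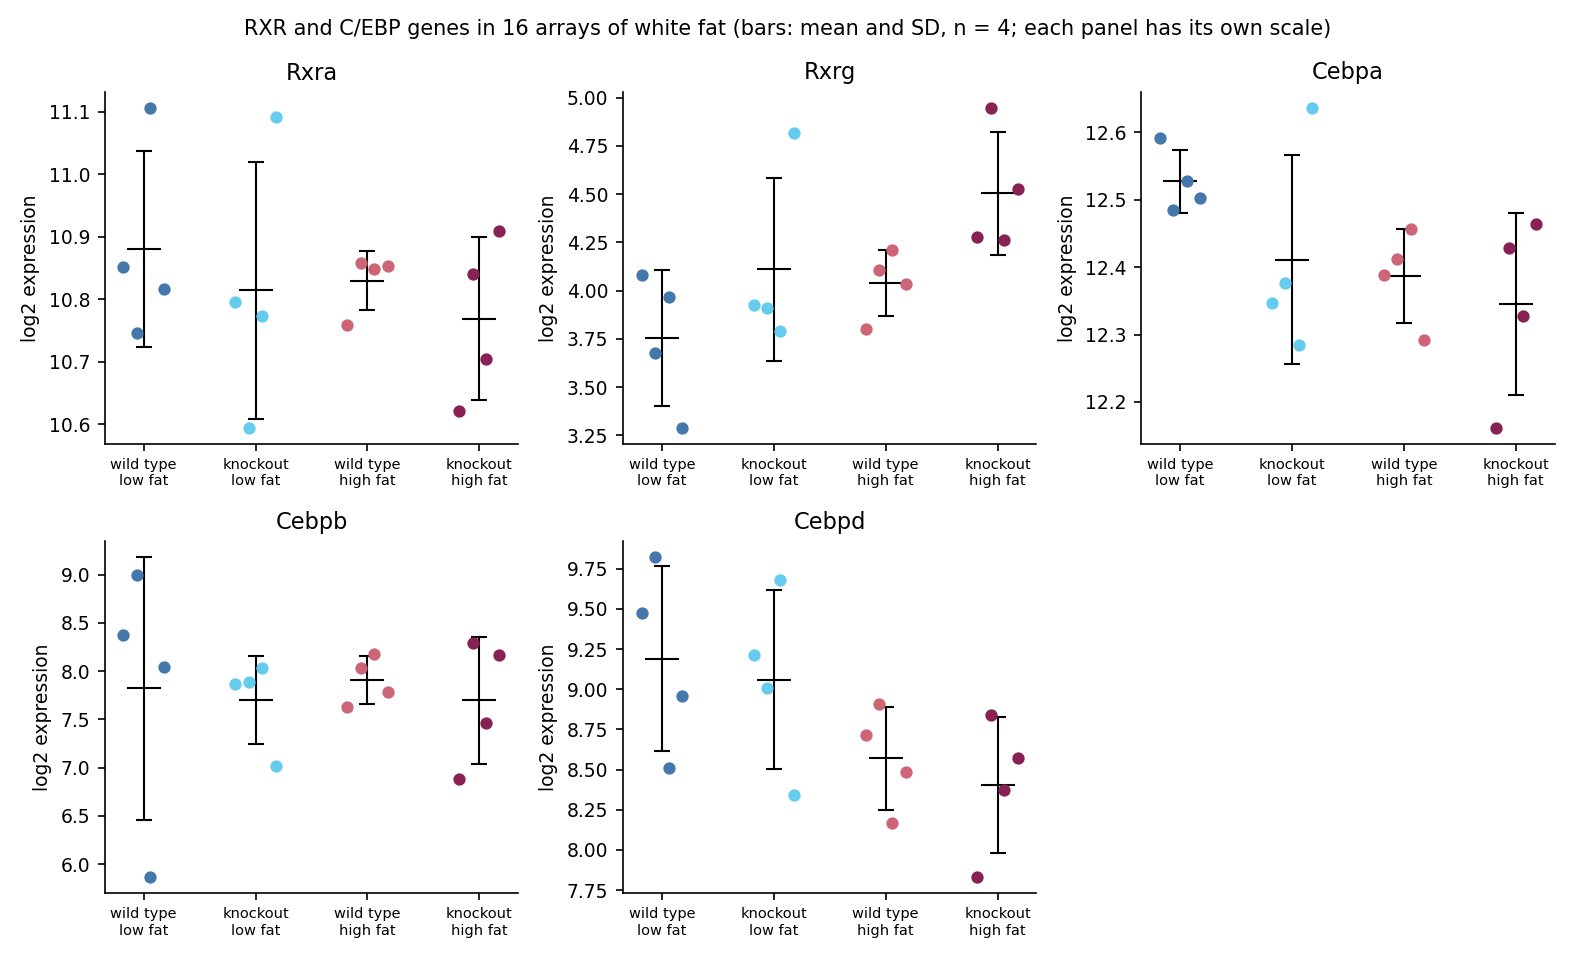
Log2 expression of Rxra, Rxrg, Cebpa, Cebpb and Cebpd (brightest probe set of each, vertical axis, own scale per panel) in the 4 groups on the horizontal axis, with 1 point per array and bars for the mean and SD of 4 arrays. The WT-LFD group of Cebpb spans 5.87 to 8.997, and the KO-HFD arrays of Rxrg, at 4.26 to 4.95, lie above the WT-HFD arrays at 3.80 to 4.21.

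**Figure D3:**
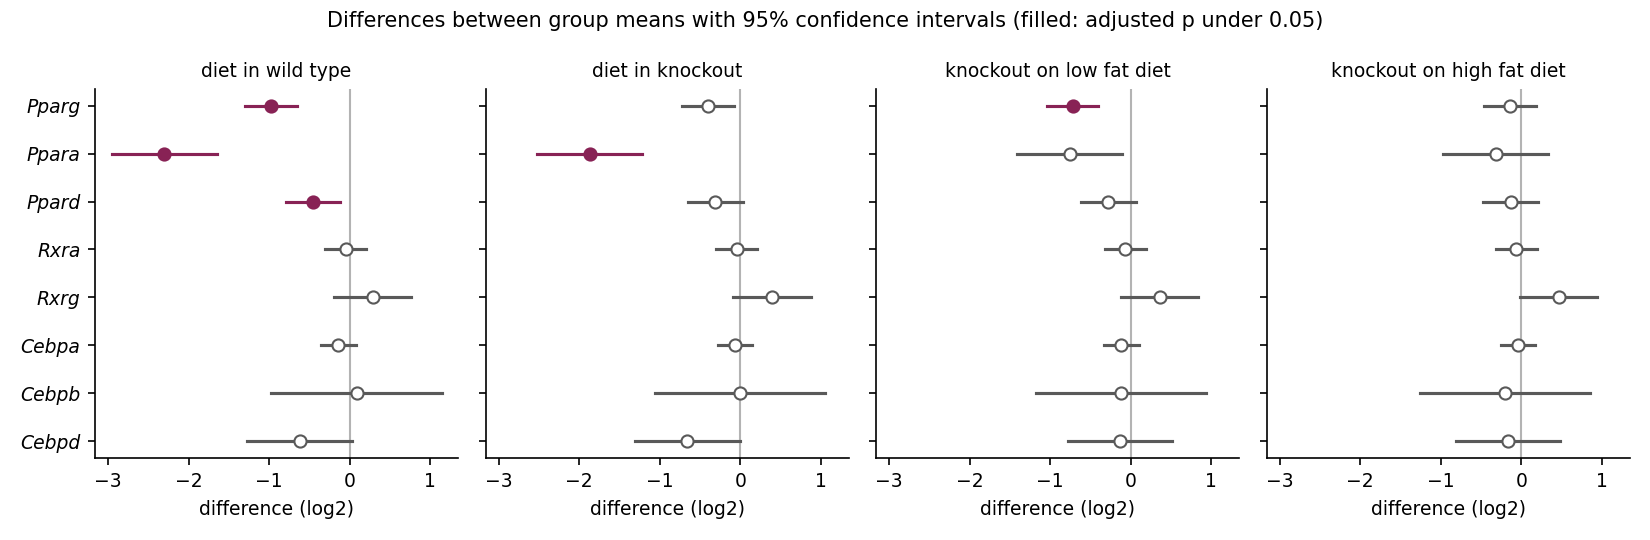
Differences of group means on the log2 scale (horizontal axis) for the 8 factors (vertical axis) in 4 comparisons, with 95% confidence intervals. Filled points passed at an adjusted p under 0.05 and are Pparg, Ppara and Ppard for diet in wild type, Ppara for diet in knockout and Pparg for knockout on the low fat diet.

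The values of one factor relative to another were compared in each array, as differences of log2 values chosen after the data were seen. The level of Pparg relative to Cebpa was -0.25 ± 0.19 (SD, n = 4) in WT-LFD, -0.86 ± 0.14 in KO-LFD, -1.09 ± 0.10 in WT-HFD and -1.20 ± 0.22 in KO-HFD arrays. These are changes of a ratio between probe sets and say nothing of which transcript is more abundant. The ratio was lower without overlap in the diet comparison in wild type (-0.84) and in the knockout comparison on the low fat diet (-0.61). Relative to the mean of 7 adipocyte markers, Pparg was likewise lower, by -0.77 and -0.54, and Cebpa was not (0.07 and 0.07). Cebpa relative to those markers was higher without overlap for diet in knockout (0.12) and between the high fat genotypes (0.12). Ppara relative to Pparg was lower without overlap with the diet in wild type (-1.33) and in knockout (-1.47). Each of these 8 separated values had an exact two-sided permutation p = 0.0286, the smallest that 4 against 4 arrays allow. Over the 16 such tests the adjusted value was 0.0571, so none passed.

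Across arrays of the same group, deviations from the group mean were compared for the 28 pairs of factors, with permutations within groups. Cebpb and Cebpd varied together, with Pearson's r = 0.78 (permutation p = 0.00101, adjusted 0.0283) and Spearman's rho = 0.74 (permutation p = 0.00317, adjusted 0.0469) over 16 arrays, and r was 0.71 without the 2 arrays farthest out in Cebpb. Pparg and Cebpa gave r = 0.61 (permutation p = 0.00535, adjusted 0.0499) and rho = 0.70 (permutation p = 0.00335, adjusted 0.0469), but r was 0.42 without KO-HFD replicates 1 and 2, so that the relation leans on those arrays. Rxrg and Cebpa gave r = 0.76 (permutation p = 0.00478, adjusted 0.0499) with rho = 0.71 (permutation p = 0.00631, adjusted 0.0589), and r was 0.57 without the 2 arrays farthest out in Rxrg. No other pair passed. Values of one array share its RNA preparation and labelling.

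**Figure D4:**
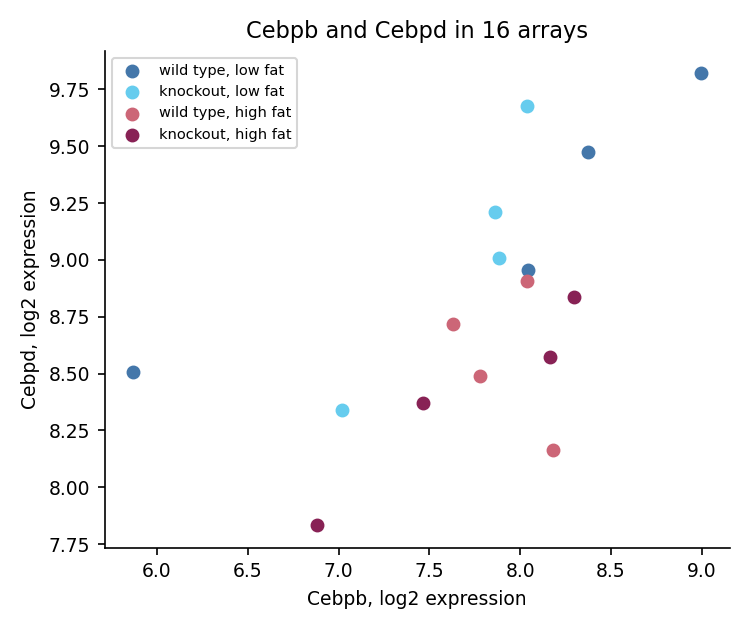
Log2 expression of Cebpb (horizontal axis) against Cebpd (vertical axis) in each of the 16 arrays, coloured by group. The WT-LFD replicate 3, with Cebpb at 5.87 and Cebpd at 8.51, stands apart on the left, and WT-LFD replicate 2 is highest in both, at 8.997 and 9.82.

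The genes most like each factor over the 16 arrays, by Pearson's r of log2 values, share the group differences with it, so that r is a description. For Pparg these were Snhg12 (r = 0.95), Catsper2 (0.95) and Gpcpd1 (0.95), and for Ppara Tmem201 (0.96), Slc25a47 (0.96) and Pon1 (0.96). For Ppard they were Clcn2 (0.93), Abhd16a (0.92) and Vwa8 (0.92), and for Rxra Micos13 (0.82), Kpna6 (0.81) and Clybl (0.80). Rxrg was most like Ssc4d (0.90), Tekt1 (0.88) and Slc25a10 (0.87), and Cebpa most like Kpna6 (0.86), Apmap (0.86) and Tab3 (0.86). Cebpb was most like Ube2q2 (0.95), Tasor2 (0.93) and Rspry1 (0.92). Cebpd was most like Spidr (0.91), Sirt1 (0.89) and Nol8 (0.87), and with Sirt1 the correlation of deviations within groups was 0.83.

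PPARs act by recruiting coregulators. Of 17 tested, 4 fell and 1 rose with the diet in wild-type fat (35.6% of all genes passed). As many did so in knockout fat and between the low fat genotypes (29.2% and 18.9% of all genes). The falls in knockout fat include Sirt1 itself, the gene targeted in the knockout. Between the high fat genotypes limma called 0 (3 at an unadjusted p under 0.05). The median difference was -0.12 for diet in wild type, against 0.04 over all genes tested. Ppargc1a, the gene of the coactivator PGC-1α, fell by 1.63 ± 0.28 with the diet in wild-type (from 6.54 to 4.91, adjusted p = 0.000411) and by 0.91 ± 0.28 in knockout fat (adjusted p = 0.0242), and for knockout on the low fat diet by 1.01 ± 0.28 (adjusted p = 0.0213). Its relative Ppargc1b fell by 1.40 ± 0.27 in wild-type fat (adjusted p = 0.000921) and gave -0.63 ± 0.27 in knockout fat (adjusted p = 0.0954). Lpin1, a phosphatidate phosphatase that also coactivates PPARs, fell by 0.91 ± 0.15 with the diet in wild-type fat, by 0.64 ± 0.15 in knockout fat and by 0.69 ± 0.15 with the knockout under low fat feeding. Fam120b, a PPARG coactivator, fell in those same 3 comparisons by 0.72, 0.52 and 0.56. Tle3, which works with PPARG in the white fat programme, rose with the diet in wild-type fat by 0.61 ± 0.13 (adjusted p = 0.00166) and with the knockout under low fat feeding by 0.46 ± 0.13 (adjusted p = 0.02); its interaction was -0.68 ± 0.18 (adjusted p = 0.022). With arrays centred on their median, the wild-type diet count was 8 lower and 1 higher.

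Sirt1 itself was read by 1 probe set, and whether it lies inside the deletion is not stated in the labels, so it cannot check the genotypes. Knockout minus wild type was -0.19 ± 0.18 on the low fat and -0.22 ± 0.18 on the high fat diet (adjusted p = 0.498 and 0.448). The diet differences were -0.46 ± 0.18 in wild-type (adjusted p = 0.056) and -0.50 ± 0.18 in knockout fat (adjusted p = 0.0489).

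Other partners of the RXRs were few. Of 8 tested, 3 fell with the diet in wild-type fat, and 2 fell and 1 rose in knockout fat. Over all genes tested 35.6% and 29.2% passed. Nr1h3, the gene of the liver X receptor α, fell by 0.69 ± 0.19 in wild-type fat (from 9.51 to 8.82, adjusted p = 0.011) and was at 9.06 and 9.27 in knockout fat on the low and high fat diet, an interaction of 0.90 ± 0.27 (adjusted p = 0.0399). Thra, a thyroid hormone receptor gene, fell by 0.43 ± 0.13 in wild-type (adjusted p = 0.0177) and by 0.60 ± 0.13 in knockout fat (adjusted p = 0.00262). Vdr, the vitamin D receptor gene, rose by 0.53 ± 0.19 with the diet in knockout fat (adjusted p = 0.0487) with an interaction of 0.86 ± 0.27 (adjusted p = 0.049). Nr1h4 lay at 3.46 to 4.18 as group means, and its 2 falls did not pass with values under 4 set to 4.

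Among 18 regulators of fat cell formation that act beside these factors, 4 fell and 2 rose with the diet in wild-type fat. In knockout fat 5 fell and 1 rose. These counts are close to the shares over all genes tested, 35.6% and 29.2%. Klf15, which induces Pparg in fat cell formation, fell by 1.49 ± 0.22 (from 11.12 to 9.62, adjusted p = 8.47e-05) and 1.13 ± 0.22 (adjusted p = 0.000985), and for knockout on the low fat diet by 0.69 ± 0.22 (adjusted p = 0.0345). Egr2, also called Krox20, an early inducer of Cebpb in preadipocytes and a gene of macrophages as well, rose by 3.44 ± 0.37 in wild-type (from 6.01 to 9.45, adjusted p = 6.7e-06) and 2.84 ± 0.37 in knockout fat (adjusted p = 3.51e-05). Bmp4, a signal that commits precursors to the fat lineage, rose by 0.74 ± 0.26 in wild-type fat (adjusted p = 0.0374) and fell by 1.27 ± 0.26 in knockout fat (adjusted p = 0.00176), an interaction of -2.02 ± 0.37 (adjusted p = 0.00293). Of the C/EBP relatives, Ddit3, the stress factor CHOP, rose with the diet in knockout fat by 0.94 ± 0.17 (adjusted p = 0.000556) and in knockout against wild type on the high fat diet by 0.71 ± 0.17 (adjusted p = 0.00898).

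Known target genes of PPARA were mostly lower with the diet in wild-type fat. There 15 of 26 tested fell and 1 rose, where 15.2% of all genes fell, with a median difference of -0.57, and in knockout fat 10 fell and 0 rose, with a median of -0.26; over all genes tested the medians were 0.04 and -0.02. In knockout fat 13.5% of all genes fell. For knockout on the low fat diet 8 of the list fell and 1 rose (median -0.26), against 7.24% of all genes lower. Each of these counts of falls holds Acot3, which passed the filter only through WT-LFD arrays, so its part in them is a description. In knockout fat the Acot3 means, 2.71 and 1.62, both lay under the filter level. For knockout on the high fat diet 2 of the list fell and 0 rose (median -0.07), where 15.1% of all genes passed. Hepatocyte markers stand beside this list: 2 of 5 tested fell with the diet in wild-type fat, 1 in knockout fat and 1 between the low fat genotypes, Apoc3 having group means of 10.43, 6.76, 5.67 and 6.33 (WT-LFD, KO-LFD, WT-HFD and KO-HFD). The mean of 6 such markers ran from 4.98 to 7.21 in WT-LFD arrays, 4.27 to 5.79 in KO-LFD, 3.88 to 5.21 in WT-HFD and 3.95 to 6.13 in KO-HFD, and their part in the counts was not tested. Without the 5 arrays with Tnnt3 at 8 or more the 4 counts of falls were 7, 5, 3 and 1 of 24, where fewer arrays also leave fewer calls among all genes (2538 against 4304 for diet in wild type). Several of these genes are also targets of the other PPARs, are expressed in muscle or are near-identical copies of one another, so that a change in them is not a reading of PPARA alone.

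For diet in wild type the largest differences of this list were those of Acot3 and Acot4, acyl-CoA thioesterase genes with close paralogs whose probe sets may share signal. Acot2, of the same family, fell by 0.96 ± 0.19. Acot3 was at 4 or more only in WT-LFD arrays and so passed the filter through the group where it is high, and its values are a description. It went from a mean of 7.20 in WT-LFD arrays to 1.81 with the high fat diet (fell by 5.39 ± 0.27, adjusted p = 4.51e-09) and 2.71 with the knockout (fell by 4.49 ± 0.27, adjusted p = 4.49e-08). With values under 4 set to 4 both falls were 3.20. Acot4 fell by 3.14 ± 0.25 with the diet in wild-type and 2.05 ± 0.25 in knockout fat, and by 1.60 ± 0.25 with the knockout under low fat feeding (adjusted p = 5.48e-07, 2.16e-05 and 0.000454). Vnn1, a pantetheinase gene that is a sensitive PPARA target in liver, fell by 1.94 ± 0.23 with the diet in wild-type fat (from 13.22 to 11.28, adjusted p = 1.49e-05) and by 1.85 ± 0.23 with the knockout on the low fat diet (to 11.37, adjusted p = 6.13e-05), and its interaction was 1.26 ± 0.32 (adjusted p = 0.0196). Ehhadh, the bifunctional enzyme of peroxisomal fatty acid oxidation, fell in all 4 comparisons, by 1.34, 0.87, 1.10 and 0.63 (each ± 0.19, adjusted p = 8.69e-05, 0.00321, 0.00114 and 0.0377). Plin5, a lipid droplet protein of oxidative tissues, fell by 1.22 ± 0.22 in wild-type and 1.47 ± 0.22 in knockout fat. Cpt1a, the gate of mitochondrial fatty acid uptake, went the other way and rose by 0.62 ± 0.20 with the diet in wild-type fat (adjusted p = 0.0271) and by 0.68 ± 0.20 with the knockout on the low fat diet (adjusted p = 0.0286). The mitochondrial oxidation genes were mixed: Acadvl, Cpt2 and Acadl fell by 0.95 ± 0.18, 0.83 ± 0.25 and 0.57 ± 0.15 with the diet in wild-type fat (adjusted p = 0.000732, 0.0167 and 0.00842), the first pair also in knockout fat (adjusted p = 0.0329 and 0.0265), whereas Acadm, Hadha and Hadhb gave -0.20, -0.17 and -0.07 in wild type and did not pass.

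The known PPARG target genes had medians between -0.15 and -0.10. Of 21 tested, 5 fell and 2 rose with the diet in wild-type fat (median -0.10, where 35.6% of all genes passed). In knockout fat 3 fell and 0 rose (median -0.15, where 29.2% passed). For knockout on the low fat diet 3 fell and 2 rose (median -0.13, where 18.9% passed). On the high fat diet 3 fell and 1 rose with the knockout (median -0.10, where 15.1% passed). Of the markers of mature fat cells, Lipe fell with the diet in wild-type fat (adjusted p = 0.0458). Retn fell with the diet in knockout fat (adjusted p = 0.0164) and also passed as lower with the knockout on the high fat diet (-0.56). Fabp4, Cd36 and Adipoq did not pass in any of the 4 comparisons. Fabp4, the fatty acid carrier, gave differences between -0.02 and 0.15, the fatty acid transporter gene Cd36 between -0.02 and 0.08, and the hormone gene Adipoq between -0.19 and 0.00. These probe sets read near the highest value on any array, 14.2, and whether such bright probe sets understate a difference was not tested. Dgat1, which completes triglyceride synthesis, fell by 1.16 ± 0.25 with the diet in wild-type fat (adjusted p = 0.00194) and by 0.86 ± 0.25 with the knockout on the low fat diet (adjusted p = 0.0243), whereas Dgat2 rose by 0.50 ± 0.17 and 0.60 ± 0.17 (adjusted p = 0.0359 and 0.0246). Pnpla2, the main triglyceride lipase gene, fell by 0.52 ± 0.09 with the diet in wild-type fat, by 0.25 ± 0.09 in knockout fat and by 0.39 ± 0.09 with the knockout on the low fat diet. Pck1, the enzyme of glyceroneogenesis, fell by 0.47 ± 0.11 and 0.89 ± 0.11 with the diet and by 0.59 ± 0.11 with the knockout on the high fat diet (adjusted p = 0.0032, 2.25e-05 and 0.00203). Agpat2, an enzyme of phosphatidate synthesis, was at 11.61, 11.61, 10.74 and 11.60 in WT-LFD, KO-LFD, WT-HFD and KO-HFD arrays, and rose with the knockout on the high fat diet by 0.86 ± 0.21 (adjusted p = 0.0102).

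**Figure D5:**
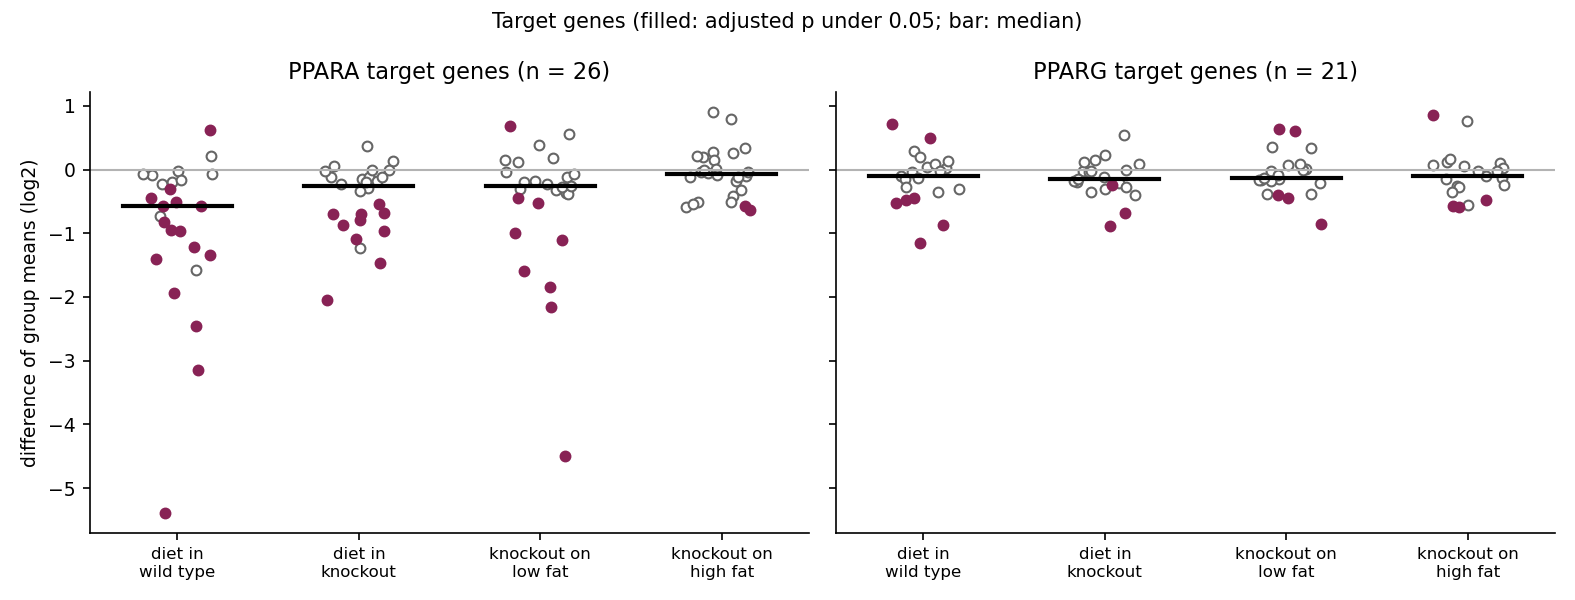
Differences of group means on the log2 scale (vertical axis) for 26 PPARA target genes (left) and 21 PPARG target genes (right) in 4 comparisons (horizontal axis), with 1 point per gene, filled where the adjusted p was under 0.05, and a bar at the median. For diet in wild type the PPARA median lies at -0.57 and the PPARG median at -0.10, and the lowest point is Acot3 at -5.39.

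Genes known to respond to CDK5-linked phosphorylation of PPARG did not move as a block. Of 15 tested, 2 fell and 1 rose with the diet in wild-type fat, and 4 fell in knockout fat. For knockout 1 fell and 1 rose on the low fat diet, and 2 fell on the high fat diet. Over all genes tested 35.6%, 29.2%, 18.9% and 15.1% passed in these comparisons. Nr1d1, a repressor of the circadian clock, fell in all 4, by 1.98, 1.83, 1.29 and 1.14 (each ± 0.26), and the imprinted gene Peg10 rose by 4.26 ± 0.81 with the diet in wild-type fat and by 3.21 ± 0.81 with the knockout on the low fat diet. Of the 7 PPARD targets 3 fell and 1 rose with the diet in wild-type fat (35.6% of all genes passed). In knockout fat 1 fell and 1 rose (29.2% of all genes passed). Ucp3, a mitochondrial carrier of muscle and brown fat, fell by 1.41 ± 0.26, 0.96 ± 0.26 and 0.99 ± 0.26 for the diet (wild type, then knockout) and between the low fat groups.

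Of 12 C/EBPα targets, a list that holds Cebpa itself, 4 fell and 1 rose with the diet in wild-type fat. In knockout fat 5 fell and 1 rose, against 35.6% and 29.2% of all genes called in either direction. Insr, the insulin receptor gene, fell by 1.19 ± 0.13 with the diet in wild-type fat, by 0.63 ± 0.13 in knockout fat and by 0.84 ± 0.13 with the knockout on the low fat diet (adjusted p = 7.36e-06, 0.00177 and 0.000419). Lep, the leptin gene, rose by 1.49 ± 0.17 with the diet in wild-type fat and by 1.17 ± 0.17 with the knockout on the low fat diet, with an interaction of -1.15 ± 0.23 (adjusted p = 0.00524). Fasn, the fatty acid synthase gene, fell by 1.04 ± 0.20 with the diet in wild-type and 0.82 ± 0.20 in knockout fat.

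Acute phase genes that C/EBPβ and C/EBPδ are known to control moved in both directions, although neither factor passed. Of 13 tested, a list that holds Cebpd itself, 4 rose and 2 fell with the diet in wild-type fat. In knockout fat 6 rose and 4 fell. For knockout 3 rose and 1 fell on the low fat diet, and 5 rose and 2 fell on the high fat diet. Of all genes tested 35.6%, 29.2%, 18.9% and 15.1% passed in these comparisons. The rises in knockout fat and those on the high fat diet include Saa1 and Saa2. Their group means lay under 4 except in KO-HFD arrays (5.84 and 5.37). They passed the filter through that group, so their calls are a description. Lcn2, an iron-scavenging protein of inflammation, rose with the diet in knockout fat by 4.28 ± 0.38 (from 6.47 to 10.75, adjusted p = 1.67e-06) and by 1.28 ± 0.38 in wild-type fat (adjusted p = 0.0142), an interaction of 3.00 ± 0.53 (adjusted p = 0.00225). Saa3, a serum amyloid gene of fat and macrophages, rose with the diet by 1.89 ± 0.29 in wild-type and 1.31 ± 0.29 in knockout fat. Orm3, one of 3 similar orosomucoid genes, fell by 1.27 ± 0.29 and 3.48 ± 0.29, and Il6ra, a receptor chain for interleukin 6, fell by 1.02 ± 0.12 and 0.45 ± 0.12.

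In whole tissue, fewer cells of a type and less RNA per cell cannot be told apart, so the cell markers stand beside these results. The fat cell markers were high everywhere: Adipoq lay between 13.19 and 13.68, and the mean log2 of 7 adipocyte markers ran from 13.08 to 13.18 in WT-LFD, 12.86 to 13.11 in KO-LFD, 12.84 to 12.99 in WT-HFD and 12.62 to 12.85 in KO-HFD arrays. With the diet in wild-type fat 2 of the 7 fell (Pnpla2 and Lipe) and 0 rose. Macrophage markers rose in 11 of 15 with the diet in each genotype, and their mean ran from 9.26 to 9.60, 9.91 to 10.26, 10.22 to 10.83 and 11.15 to 11.31 in the same order of groups. Brown fat markers fell in 6 of 9 tested with the diet in wild-type and in 7 of 9 in knockout fat. Both counts hold Elovl3, whose falls did not pass with values under 4 set to 4 (adjusted p = 0.106 and 0.231). The count in knockout fat also holds Dio2, which was at 4 or more only in KO-LFD arrays. Dio2 thus passed the filter through the group where it is high, and its fall is a description. Ucp1, the uncoupling protein that defines brown fat, went from 9.62 to 5.97 and from 10.44 to 5.99. Within groups the deviations of Ppara from its means correlated with those of the brown marker mean at r = 0.78 and with those of the macrophage mean at -0.58. Those of Pparg correlated with the endothelial mean at 0.73, the adipocyte mean at 0.59 and the macrophage mean at -0.15. These describe 16 arrays, each sharing 1 RNA preparation between the genes. Mesothelial markers, of the lining that covers abdominal fat, fell in 6 of 6 with the diet in knockout fat and with the knockout on the high fat diet, their mean running from 6.96 to 8.11 in KO-HFD arrays against 8.55 to 9.60 in WT-HFD arrays. For diet in wild type and between the low fat genotypes limma called 0 of them (1 and 0 at an unadjusted p under 0.05). Endothelial markers fell in 4 of 7 with the knockout on the high fat diet. With the diet in wild-type fat 3 of 7 progenitor and 3 of 9 lymphocyte markers rose. The lymphocyte count holds Cd79a, whose rise did not pass with values under 4 set to 4 (0.12, adjusted p = 0.278). Between the low fat genotypes 4 of 15 macrophage, 2 of 7 progenitor and 2 of 9 lymphocyte markers rose with the knockout and 0 fell. There 1 of 7 adipocyte markers fell and 0 rose. Over all genes tested 35.6% passed for diet in wild type and 29.2% for diet in knockout. For knockout 18.9% passed on the low fat and 15.1% on the high fat diet. The part of cell composition in the changes of Pparg, Ppara and Ppard was not tested.

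The arrays resembled each other closely, with r between 0.987 and 0.996 within groups and array medians of 4.34 to 4.46, and 4 arrays a group limit every value above. Tnnt3, a fast muscle troponin gene, reached a log2 of 8 or more in 5 arrays: WT-LFD replicates 3 and 4, KO-LFD replicate 2, WT-HFD replicate 3 and KO-HFD replicate 4. It was at 7.95 in WT-HFD replicate 4 and 7.37 in KO-LFD replicate 1, so muscle transcripts were not absent from the other 11. Markers of epithelium were high in 1 WT-HFD array, at a mean of 8.22, where the others of that group began at 3.51. The scaling sets the balance of calls: for diet in wild type 2472 genes were higher and 1832 lower as deposited, 2050 and 2552 with arrays centred on their median, and 2062 and 2539 after quantile normalization. For knockout on the low fat diet the split was 1410 and 874, 1151 and 1274, and 1123 and 1281, and for the interaction 618 and 951, 853 and 868, and 989 and 885.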

How the data were processed

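White fat RNA from 16 samples was read on Affymetrix mouse arrays. Per the submitters' processing notes the authors made the deposited log2 expression values with GCRMA 2.20.0 in R 2.11.1, one value for each of 45037 probe sets. The sources used here do not say how filters or batches were handled.

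Groups came from the sample titles. Of the 45037 probe sets, 34945 named a single gene, 932 more than 1 and 9160 no gene. A further Ppard probe set also maps to another gene and was left out. Each gene was read by its brightest probe set, and 12078 genes passed the filter. One mean per group was fitted to all 16 arrays with limma 3.58.1 in R 4.3.3 (12 residual degrees of freedom), two-sided, with Benjamini-Hochberg adjustment. The fit was tested on simulated data. Permutation tests used scipy 1.17.1 in Python 3.11.15, with 100000 resamples for correlations. Promoters are RefSeq's, searched on both strands.

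The factors, the 10 pathway lists (140 of 175 entries tested) and the 11 marker lists were chosen with earlier results of these data known. Of each pathway list, up to 4 genes with the smallest p among those past the threshold could be named in each comparison; target genes given as not passing, and a few with larger p, were picked after their values were seen. For likeness, the 3 genes with the highest r were named. The replicate numbers were not used as pairs in the main fit, and the titles do not say whether they pair the samples.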

Additional observations from a re-analysis of the deposited data

Results flagged for a closer look

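Of 32 groups of 4 arrays, 3 held an array whose distance to its nearest neighbour passed Dixon's 95% critical value, a gap that chance gives in about 5% of groups. Rxra was lowest in WT-HFD replicate 1, at 10.76, with the next array at 10.85, a small difference in a narrow group. Rxrg was highest in KO-LFD replicate 4, at 4.82, with the next at 3.93. In that same array Cebpb was lowest, at 7.02, with the next at 7.86. None of the 3 genes passed a test between groups over all 16 arrays as deposited on the probe set concerned, but without KO-LFD replicate 4 Rxrg passed for diet in knockout (0.63, adjusted p = 0.025), as it did with array weights (0.49, adjusted p = 0.0273).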

How the results depend on the processing

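The falls of Pparg and Ppara with the diet in wild type and of Ppara in knockout kept their direction and passed in every other setting tried; the fall of Ppard in wild type ended in 7 settings and that of Pparg with the knockout on the low fat diet in 1. The cause of the following changes was not tested. For diet in knockout the number of factors past the threshold, 1, became 2 with a trended and robust variance, with centred arrays and with quantile normalization. It became 3 with the mean of a gene's probe sets, a count that takes in Rxra, whose mean includes its dim probe sets. With array weights it was 5, and it ran from 1 to 3 with single arrays left out, where 3 is the count without KO-LFD replicate 4. For knockout on the low fat diet the number, 1, became 2 with the mean of the probe sets, 0 without probe sets marked _a, _s or _x (which drops Pparg) and 0 without the 5 arrays with Tnnt3 at 8 or more, called the muscle arrays, and ran from 1 to 3, where 3 is the count without WT-LFD replicate 2. For the interaction the number, 0, became 1 with array weights and with centred arrays and ran from 0 to 1. The counts of 3 for diet in wild type and 0 for knockout on the high fat diet ran from 2 to 3 and stayed at 0 with single arrays left out.

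Differences near 0 changed sign without passing a test. With array weights Rxra (0.026) and Cebpa (0.0054) did so for diet in knockout, Cebpb (0.015) and Cebpd (0.11) for knockout on the low fat diet and Rxrg (-0.0021) for the interaction. With the mean of the probe sets Cebpb did so for diet in knockout (0.088) and knockout on the low fat diet (0.036), and for the interaction Rxra (-0.015) and Cebpd (0.028); with centred arrays the interaction of Cebpd was 0.0099. Without the muscle arrays the diet difference in wild type was 0.024 for Rxra and -0.87 for Cebpb, the knockout difference of Rxra on the low fat diet was 0.088, and the interactions of Rxra, Cebpb and Cebpd were -0.19, 0.78 and 0.21. With single arrays left out, Rxra ran from -0.095 to 0.025 for diet in wild type, -0.12 to 0.047 for diet in knockout, -0.16 to 0.0096 for knockout on the low fat diet and -0.070 to 0.098 for the interaction. Cebpa ran from -0.11 to 0.0095 for diet in knockout and -0.081 to 0.019 for knockout on the high fat diet, and Rxrg from -0.041 to 0.34 for the interaction. Cebpb ran from -0.57 to 0.48, -0.23 to 0.27, -0.77 to 0.27, -0.40 to 0.067 and -0.48 to 0.56 over the 5 comparisons, taken as diet (wild type, then knockout), knockout (low fat, then high fat) and interaction. Cebpd ran from -0.36 to 0.11 for knockout on the low fat diet, -0.31 to 0.025 on the high fat diet and -0.27 to 0.19 for the interaction.

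With the replicate number as a block, the counts of factors stayed at 3, 1, 1, 0 and 0. Over 24 pairs of same-numbered arrays the deviations correlated from -0.321 to 0.199, with 5 over 0.1. Such correlations cannot settle whether the numbers pair the samples, and the titles do not say. Calls over all genes, 4304, 3523, 2284, 1818 and 1569 in the same order of comparisons, became 9059, 7071, 4619, 3184 and 2898 with probe sets tested singly and 2538, 2295, 830, 779 and 412 without the muscle arrays. With array weights they were 5354 for diet in knockout, 3424 for knockout on the high fat diet and 2481 for the interaction. The low fat knockout comparison gave 1292 with only the groups compared, and 1519, 1416 and 1510 without WT-LFD replicate 1 and KO-LFD replicates 1 and 2. They were 1201 and 1057 for knockout on the high fat diet without WT-HFD replicate 3 and KO-HFD replicate 1, and 2368 for the interaction without WT-LFD replicate 2. Values near a log2 of 4, as of Rxrg and of Ppara on the high fat diet, are the least precise.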
